A study of Mus musculus with 20 samples.

Results

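Integrins and cadherins are the main adhesion receptors of the cell surface, and their transcripts were followed here in stromal cells of mouse bone marrow. Members were all gene symbols of the forms Itga, Itgb, Cdh and Pcdh with a number or, for Itga, one of the letters d, e, l, m, v and x. Among 24347 gene symbols, 60 matched: 26 integrins, 23 cadherins and 11 protocadherins. Of these, 34 reached at least 1 FPKM (mapped fragments divided by transcript length and by library size) in 3 or more of 12 libraries, and these 34 were tested.

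The 12 RNA libraries formed 4 groups of 3, all from C57BL/6 mice. CAR cells, the CXCL12-abundant reticular cells that line marrow sinusoids, were the Sca1- cells of the CD45-CD31-Lin-PDGFRα+ gate. PaS cells, mesenchymal progenitors, were the Sca1+ cells of that gate. CAR ko and PaS ko libraries came from Ebf1fl/fl;Prx1+/cre mice, and CAR wt and PaS wt libraries from Ebf1+/+;Prx1+/cre mice, so that every group carried the Prx1 Cre driver of limb mesenchyme and the wt groups had no floxed allele. The protein of Ebf1 is a DNA-binding factor needed for B lymphocytes and active in marrow stroma. Age is not given in the sources used here, and the labels do not say if replicates are animals, pools or repeats. P-values therefore cover only the spread among these libraries.

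Each integrin is a pair of an alpha and a beta chain. The alpha chain largely sets the ligand, such as collagen, laminin or fibronectin, and some chains are made mainly by leukocytes or platelets. Cadherins bind calcium and join neighbouring cells through like cadherins, and classical cadherins are linked to the actin skeleton by catenins, whereas protocadherins lack the catenin-binding tail. In marrow, stromal cells hold their matrix by integrins, and blood cells use integrins of their own to bind VCAM1 and ICAM1 on the stroma.

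FPKM sums of the libraries ranged from 491801 to 526074, with 11863 to 12295 genes at 1 FPKM or more. PaS wt replicate 1 differed from the rest, with 24.6% of genes listed at 0, against 33.3% to 37.0% in the other 11 libraries. Read depth is unknown. Ebf1 itself had 56.0, 56.7 and 59.8 FPKM in CAR ko libraries, against 48.9, 48.5 and 46.8 FPKM in CAR wt libraries (log2 difference 0.25, SE 0.08, adjusted p = 0.040). In PaS cells the gene had 65.0, 61.9 and 60.7 FPKM in PaS ko libraries, against 55.0, 62.1 and 50.5 FPKM in PaS wt libraries (log2 difference 0.16, SE 0.08, adjusted p = 0.25). The targeted gene was thus not lower in ko libraries of either cell type, and since whole-gene FPKM may count exons that the deletion spares, the level does not check the labels. Groups are named as labelled. All 10 markers of CAR cells were called higher in CAR wt than in PaS wt libraries, where 20.5% of all genes were. Of 10 markers of PaS cells and fibroblasts, 9 were called lower, against 22.7% of all genes. Among these is Ly6a, which encodes the Sca1 used in the sort, so its difference follows from the sort. These counts concern the cell types and do not check the genotype labels.

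A member was called where the Benjamini-Hochberg adjusted p of limma's test, taken over 12938 genes, was under 0.05. Differences are of log2(FPKM + 1), which understates the change of members with low values. Lack of overlap between libraries describes the same values as the tests, and its share over all genes was not counted. More members differed between the cell types than between genotypes: 24 of 34 members (70.6%) were called in CAR wt minus PaS wt, where 43.2% of all genes tested were called, and 25 (73.5%) in CAR ko minus PaS ko, where 36.9% were. In CAR wt minus PaS wt 6 members were higher and 18 lower, against 20.5% and 22.7% of all genes, and in CAR ko minus PaS ko 11 were higher and 14 lower, against 17.0% and 19.8%. These counts rest in part on the minimum, since 7 members reached 1 FPKM in PaS libraries alone, Itgad, Itga2, Itga7, Itgb8, Cdh5, Cdh19 and Pcdh20, and a CAR minus PaS difference for them follows in part from the way they were chosen for testing. All 7 were called lower in CAR wt and 6 in CAR ko libraries, and of the other 27 members 17 and 19 were called. In CAR ko minus CAR wt, 13 members (38.2%) were called, 7 higher and 6 lower, against 12.3% of all genes (6.51% higher and 5.74% lower). In PaS ko minus PaS wt, 10 members (29.4%) were called, 2 higher and 8 lower, against 7.44% of all genes (3.41% higher and 4.03% lower). The genotype effect itself differed between CAR and PaS cells for 4 members (11.8%), Itgb3, Itgb5, Pcdh7 and Pcdh18, against 6.58% of all genes. In all 4 it was higher in CAR cells, as it was in 3.32% of all genes and lower in 3.26%. In bulk RNA, fewer cells of a type and less RNA per cell cannot be told apart. These contrasts share libraries and are not independent of one another. Median log2 differences of the members were 0.09 in CAR ko minus CAR wt and -0.10 in PaS ko minus PaS wt, where the medians of all genes were 0.01 and 0.00.

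**Figure D1:**
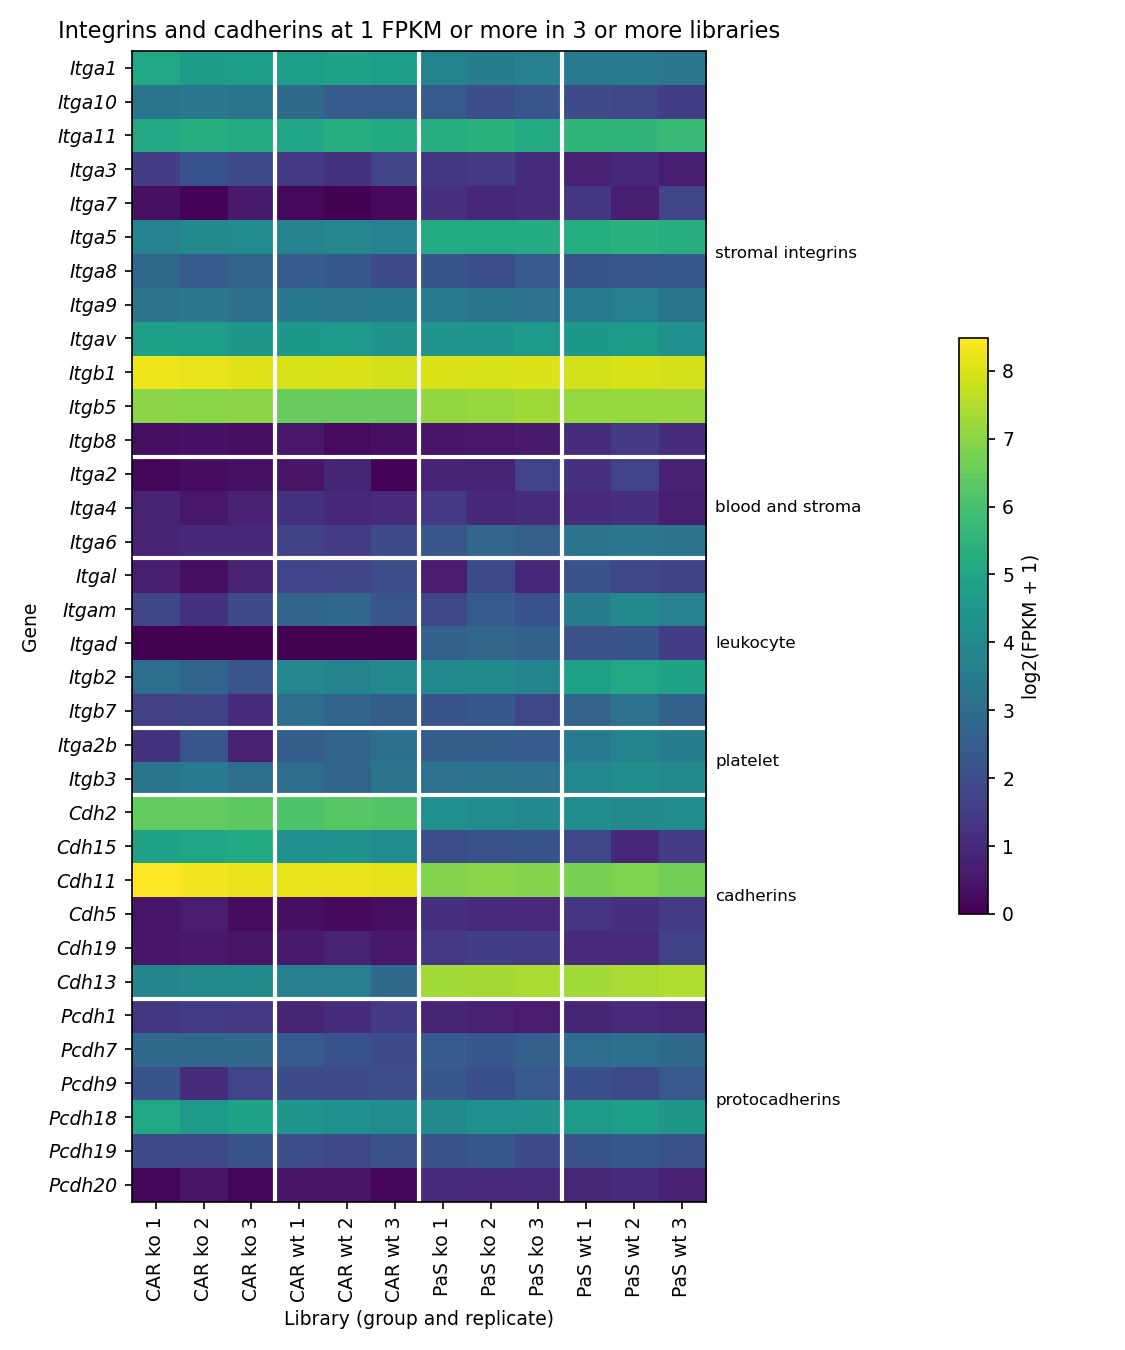
Levels of the 34 tested members as log2(FPKM + 1), with 1 column per library in the order CAR ko, CAR wt, PaS ko, PaS wt and 1 row per gene, grouped by class. Itgb1 and Itgb5 were high in all 12 libraries, Cdh11, Cdh2 and Cdh15 were higher in CAR than in PaS libraries, and Cdh13 and Itga5 were higher in PaS libraries.

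The 26 matched symbols below the minimum were Cdh1, Cdh3, Cdh4, Cdh6, Cdh7, Cdh8, Cdh9, Cdh10, Cdh12, Cdh16, Cdh17, Cdh18, Cdh20, Cdh22, Cdh23, Cdh24, Cdh26, Itgae, Itgax, Itgb4, Itgb6, Pcdh8, Pcdh10, Pcdh12, Pcdh15 and Pcdh17. Cdh7 and Cdh20 were listed at 0 in all 12 libraries. Epithelial members were low: Cdh1, the E-cadherin of epithelia, stayed at or under 0.647 FPKM, and Itgb4 and Itgb6, beta chains of epithelial integrins, at or under 0.380 and 0.279 FPKM. Closest to the minimum was Cdh4, a classical cadherin first known from retina, which had 1.25, 1.23 and 0.955 FPKM in PaS ko libraries, against 0.804, 0.766 and 0.727 FPKM in PaS wt libraries and so passed 1 FPKM in 2 libraries. Just inside it, Itga2, Itgb8 and Pcdh20 passed in exactly 3 libraries. Itgb8 passed through its PaS wt libraries alone, so its genotype difference in PaS cells also follows in part from the minimum.

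Sequences around the start are shown for Itgb5, Pcdh7 and Pcdh18, where the genotype effect differed between the cell types, and for Itgam and Itga2b, alpha chains of leukocytes and platelets that fell in ko libraries of both. The effect also differed for Itgb3, which had no sequence in the source used here and was not searched. Windows run from 250 bases before to 50 bases after a start listed for the gene by RefSeq on GRCm38.p6 and are printed 5′ to 3′ on the strand of the gene. This start was the 5′ end of the annotated gene for Itgb5, Itgam and Itga2b, and lay 1936 bases inside the gene for Pcdh7 and 67 bases inside for Pcdh18. Sequences are those of RefSeq, and of the 34 tested members 22 matched such a window, 24 windows in all, of which 13 stood at the 5′ end of the gene and 11 inside it, at most 104983 bases inside, for Itga9. Capitals mark 2 motifs searched on both strands: GAGGAA, the core recognised by PU.1, the myeloid and B cell factor, which reads TTCCTC from the other strand, and CCCNNGGG, the core of EBF sites.
Pcdh7, chr5:57717831-57718130, plus strand: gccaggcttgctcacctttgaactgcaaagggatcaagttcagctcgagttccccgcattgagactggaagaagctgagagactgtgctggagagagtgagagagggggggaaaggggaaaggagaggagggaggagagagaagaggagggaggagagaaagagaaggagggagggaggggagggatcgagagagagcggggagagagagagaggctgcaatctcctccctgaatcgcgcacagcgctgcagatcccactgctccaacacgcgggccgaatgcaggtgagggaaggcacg
Pcdh18, chr3:49757267-49757566, minus strand: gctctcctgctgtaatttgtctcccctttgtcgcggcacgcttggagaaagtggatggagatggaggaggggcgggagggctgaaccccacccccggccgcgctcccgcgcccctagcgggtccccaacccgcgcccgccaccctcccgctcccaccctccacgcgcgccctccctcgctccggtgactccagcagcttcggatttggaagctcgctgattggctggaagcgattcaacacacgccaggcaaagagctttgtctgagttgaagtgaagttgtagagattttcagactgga
Itgb5, chr16:33829415-33829714, plus strand: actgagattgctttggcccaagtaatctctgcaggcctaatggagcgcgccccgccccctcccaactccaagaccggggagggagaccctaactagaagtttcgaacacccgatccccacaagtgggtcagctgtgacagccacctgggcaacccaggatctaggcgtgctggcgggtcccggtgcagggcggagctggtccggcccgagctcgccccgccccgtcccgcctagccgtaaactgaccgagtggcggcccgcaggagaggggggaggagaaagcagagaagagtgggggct
Itgam, chr7:128062390-128062689, plus strand: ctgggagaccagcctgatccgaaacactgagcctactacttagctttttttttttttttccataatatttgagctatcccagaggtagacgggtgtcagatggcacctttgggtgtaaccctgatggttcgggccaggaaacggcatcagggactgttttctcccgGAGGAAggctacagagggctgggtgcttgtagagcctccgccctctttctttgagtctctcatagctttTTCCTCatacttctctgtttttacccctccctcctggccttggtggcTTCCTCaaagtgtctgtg
Itga2b, chr11:102469834-102470133, minus strand: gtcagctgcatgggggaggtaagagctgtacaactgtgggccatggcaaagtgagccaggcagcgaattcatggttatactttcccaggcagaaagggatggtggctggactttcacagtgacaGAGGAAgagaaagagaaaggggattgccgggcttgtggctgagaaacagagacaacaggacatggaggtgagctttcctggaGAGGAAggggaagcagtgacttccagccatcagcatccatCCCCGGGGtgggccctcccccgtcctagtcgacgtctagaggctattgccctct

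None of these motifs lies in the windows of Pcdh7, Pcdh18 and Itgb5. The Itgam window holds GAGGAA at 3 places and the Itga2b window at 2, with the EBF core once in Itga2b, from position -4 relative to the start. Over all members, GAGGAA was in 11 of 24 windows (45.8%), against 28.3% of 32851 windows of all genes, and the EBF core in 3 of 24 (12.5%), those of Itga2b, Itga4 and Itgb7, against 13.7%. Beside the blood chains Itga2b, Itgam and Itgb7, GAGGAA was in windows of Itga3, Itga5, Itga11, Itgav, Itgb1, Pcdh9 and Pcdh20. The windows of Pcdh9 overlap and hold the same GAGGAA, which was counted in both. A GATA core, AGATAA, was in 0 of 24 windows, against 11.2% of all windows. These letters describe the windows and show no binding. Among the leukocyte chains, Itgal, Itgam, Itgax and Itgad all lie on chromosome 7, at chr7:127296139-127335137, chr7:128062640-128118491, chr7:128129526-128150657 and chr7:128173933-128205504 on GRCm38.p6.

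Collagen-binding integrins pair with the beta chain of Itgb1, and the collagen receptor Itga11 of mesenchymal cells had the highest share of the alpha chains in each of the 4 groups. It made up 26.6% ± 1.73 of all alpha chain FPKM in CAR ko, 25.7% ± 1.55 in CAR wt, 25.9% ± 1.93 in PaS ko and 27.2% ± 2.91 in PaS wt libraries (SD, n = 3 each). Itga11 had 33.9, 38.2 and 35.5 FPKM in CAR ko libraries, against 31.6, 38.1 and 34.3 FPKM in CAR wt libraries. On the PaS side, it had 38.1, 42.7 and 35.3 FPKM in PaS ko libraries, against 46.3, 46.3 and 52.2 FPKM in PaS wt libraries. CAR wt libraries lay below all PaS wt libraries (log2 difference -0.47, SE 0.09, adjusted p = 6.8e-04). The ko libraries of PaS cells also lay below the wt libraries without overlap, but that difference was not called (log2 difference -0.31, SE 0.09, adjusted p = 0.053). It passed the threshold with the replicate number as a block, at adjusted p = 0.042, with a pseudocount of 5, at adjusted p = 0.045, with a filter of 5 FPKM, at adjusted p = 0.045, and without PaS ko replicate 2, at adjusted p = 0.030.

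Itga1, a receptor for collagen of basement membranes, was higher in CAR than in PaS cells. Its values were 32.2, 23.8 and 25.9 FPKM in CAR ko libraries, against 25.5, 28.4 and 26.2 FPKM in CAR wt libraries, and 13.0, 11.0 and 11.9 FPKM in PaS ko libraries, against 10.2, 9.96 and 9.18 FPKM in PaS wt libraries. Every CAR library stood above every PaS library, both in wt (log2 difference 1.36, SE 0.11, adjusted p = 5.7e-08) and in ko cells (log2 difference 1.12, SE 0.11, adjusted p = 6.6e-07), and no genotype difference was called in either cell type. The gene Pelo lies within Itga1, and strand use in the counting is not given in the sources used here, so reads of the 2 genes cannot be told apart where they overlap. Itga10, a collagen receptor known from chondrocytes, was ordered by mean as CAR ko, CAR wt, PaS ko, PaS wt, with CAR wt close to PaS ko libraries. It had 8.91, 9.51 and 8.85 FPKM in CAR ko libraries, against 6.56, 4.35 and 4.33 FPKM in CAR wt libraries. Among PaS libraries, Itga10 had 4.27, 3.08 and 3.68 FPKM in PaS ko libraries, against 2.84, 2.52 and 1.99 FPKM in PaS wt libraries. Itga10 rose in CAR ko libraries (log2 difference 0.75, SE 0.16, adjusted p = 0.0067), with no overlap, and its PaS ko libraries were above the wt libraries without passing the test (log2 difference 0.44, SE 0.16, adjusted p = 0.14).

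Beside Itga10, 4 of 10 chondrocyte markers were higher and 4 lower in CAR ko than in CAR wt libraries, against 6.51% and 5.74% of all genes. Their summed levels were 1174 to 1283 FPKM in CAR ko and 1083 to 1212 FPKM in CAR wt libraries, and none of the 10 was at 0 in all libraries of a group. In PaS ko minus PaS wt, 8 of 10 were higher, against 3.41% of all genes, with 1946 to 2149.6 FPKM in PaS ko and 1534 to 1696 FPKM in PaS wt libraries. The part of these cells in the values of Itga10 was not tested.

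Laminin receptors of the stroma were low and split by cell type. Itga3, which binds laminins of basement membranes, ran from 1.93 to 3.44 FPKM in CAR ko and 1.37 to 2.32 FPKM in CAR wt libraries, and from 1.18 to 1.72 FPKM in PaS ko and 0.640 to 0.967 FPKM in PaS wt libraries. It was higher in CAR than in PaS cells in wt (log2 difference 0.65, SE 0.19, adjusted p = 0.012) and in ko libraries (log2 difference 0.55, SE 0.19, adjusted p = 0.035). The wt call ended without CAR wt replicate 3, at adjusted p = 0.063, and the ko call without CAR ko replicate 2 or 3 (adjusted p = 0.16 and 0.086) or PaS ko replicate 1 or 3 (adjusted p = 0.058 and 0.12), with a pseudocount of 0.1 (adjusted p = 0.057) or without a filter (adjusted p = 0.053). Itga7, the laminin receptor of muscle, stayed at or under 0.536 FPKM in CAR and ran from 0.641 to 2.38 FPKM in PaS libraries (CAR wt minus PaS wt log2 difference -1.12, SE 0.24, adjusted p = 0.0011), a difference that follows in part from the minimum, which it passed in 4 PaS libraries. Neither was called between genotypes.

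Among receptors for fibronectin and other RGD ligands, Itga5 separated the cell types. Itga5 encodes the alpha chain of the classical fibronectin receptor. Its values were 12.5, 15.2 and 16.2 FPKM in CAR ko libraries, against 12.8, 14.2 and 12.6 FPKM in CAR wt libraries, and 35.3, 35.3 and 36.3 FPKM in PaS ko libraries, against 37.0, 42.0 and 37.4 FPKM in PaS wt libraries. No CAR library reached the lowest PaS library, and the difference was called in wt (log2 difference -1.49, SE 0.10, adjusted p = 4.1e-09) and in ko cells (log2 difference -1.24, SE 0.10, adjusted p = 4.3e-08). As a share of alpha chain FPKM, Itga5 made up 10.9% ± 1.66 in CAR ko and 9.78% ± 0.184 in CAR wt libraries, and 23.9% ± 0.842 in PaS ko and 21.8% ± 0.448 in PaS wt libraries (SD, n = 3 each).

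Itgav, the alpha chain of vitronectin receptors, was called in no contrast. It had 26.8, 26.2 and 21.3 FPKM in CAR ko libraries, against 22.1, 23.2 and 19.6 FPKM in CAR wt libraries. PaS cells had 20.2, 20.7 and 22.7 FPKM in PaS ko libraries, against 22.0, 23.5 and 18.3 FPKM in PaS wt libraries. All 4 groups overlapped. Itga8, a receptor for nephronectin, and Itga9, a receptor for tenascin, ranged over 2.86 to 6.25 and 7.65 to 11.7 FPKM in the 12 libraries. Itga8 was called in CAR ko minus PaS ko alone among the contrasts of groups (log2 difference 0.49, SE 0.17, adjusted p = 0.029), a call that ended without CAR ko replicate 1 or 3 (adjusted p = 0.12 and 0.085), without PaS ko replicate 1 or 2 (adjusted p = 0.062 and 0.11) and without a filter (adjusted p = 0.053).

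The beta chains were dominated by Itgb1, the partner of most stromal alpha chains. It made up 67.1% ± 0.832 of beta chain FPKM in CAR ko, 68.2% ± 1.18 in CAR wt, 60.1% ± 0.941 in PaS ko and 55.5% ± 0.251 in PaS wt libraries (SD, n = 3 each). Its level was 306, 294 and 275 FPKM in CAR ko libraries, against 249, 262 and 243 FPKM in CAR wt libraries. For PaS cells, the values of Itgb1 were 257, 255 and 258 FPKM in PaS ko libraries, against 235, 251 and 240.0 FPKM in PaS wt libraries. Itgb1 rose in CAR ko libraries by a small margin without overlap (log2 difference 0.21, SE 0.06, adjusted p = 0.020). The call ended without CAR wt replicate 1 or 3 (adjusted p = 0.064 and 0.085), without CAR ko replicate 1 or 2 (adjusted p = 0.073 and 0.068), and when the CAR groups were fitted alone (adjusted p = 0.058).

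Itgb5, a beta chain that pairs with the chain of Itgav to bind vitronectin, changed in CAR cells. It had 127, 125 and 128 FPKM in CAR ko libraries, against 89.8, 90.1 and 89.3 FPKM in CAR wt libraries. The replicates lay within 3 FPKM of each other in both CAR groups, and the ko libraries were higher (log2 difference 0.49, SE 0.06, adjusted p = 2.9e-05). Its PaS values were 136, 144 and 153 FPKM in PaS ko libraries, against 139, 138 and 144 FPKM in PaS wt libraries, which overlapped (log2 difference 0.04, SE 0.06, adjusted p = 0.80). The genotype effect was larger in CAR than in PaS cells (log2 difference 0.46, SE 0.08, adjusted p = 0.0023). CAR wt libraries stood below PaS wt libraries (log2 difference -0.64, SE 0.06, adjusted p = 1.4e-07), and CAR ko libraries below PaS ko libraries by less (log2 difference -0.18, SE 0.06, adjusted p = 0.017). The last call ended without CAR ko replicate 2, at adjusted p = 0.054, or PaS ko replicate 3, at adjusted p = 0.088.

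Itgb8, a beta chain of receptors that release active TGF-beta, was low throughout. It had 0.437, 0.466 and 0.543 FPKM in PaS ko libraries, against 1.16, 1.70 and 1.09 FPKM in PaS wt libraries. PaS ko libraries were lower without overlap (log2 difference -0.64, SE 0.17, adjusted p = 0.033). The call ended when any PaS library other than wt replicate 3 was left out, at adjusted p between 0.057 and 0.14, with a pseudocount of 0.1, at adjusted p = 0.11, and with the PaS groups alone, at adjusted p = 0.079. Both this call and the next rest in part on the minimum. CAR libraries stayed at or under 0.473 FPKM in both genotypes, below all PaS wt libraries (log2 difference -0.82, SE 0.17, adjusted p = 0.0011).

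**Figure D2:**
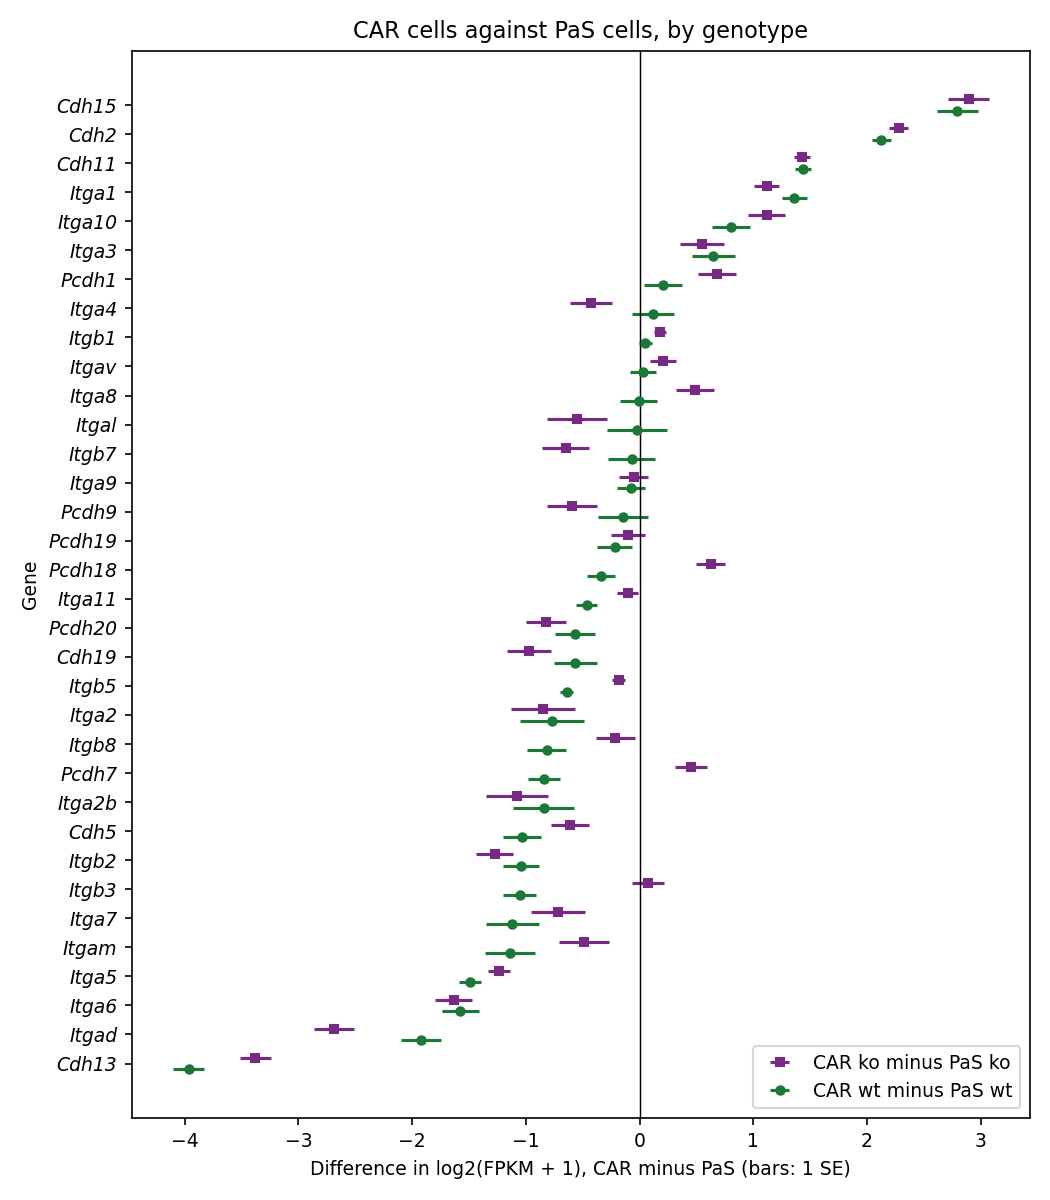
Difference in log2(FPKM + 1) of CAR minus PaS cells for the 34 tested members, with squares for ko and circles for wt libraries and bars of 1 SE. Cdh15, Cdh2, Cdh11 and Itga1 were higher in CAR cells and Cdh13, Itgad, Itga6 and Itga5 higher in PaS cells in both genotypes, with Itgad among the 7 members that passed the minimum through PaS libraries alone, while Pcdh7 and Pcdh18 were above 0 in ko and below 0 in wt libraries.

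Among cadherins, Cdh11, Cdh2 and Cdh15 were higher and Cdh13 lower in CAR than in PaS cells. All 6 tested cadherins were called between the cell types in wt and in ko libraries, where 43.2% and 36.9% of all genes were, but Cdh5 and Cdh19 had passed the minimum through PaS libraries alone. Cdh11, known as osteoblast cadherin, supplied 70.8% ± 2.18 of cadherin FPKM in CAR ko and 73.6% ± 0.271 in CAR wt libraries, against 39.0% ± 1.26 in PaS ko and 35.9% ± 2.29 in PaS wt libraries (SD, n = 3 each). Its level was 355, 317 and 298 FPKM in CAR ko libraries, against 288, 298 and 277 FPKM in CAR wt libraries. In PaS cells the gene had 116, 124 and 117 FPKM in PaS ko libraries, against 105, 112 and 98.8 FPKM in PaS wt libraries. The lowest CAR library was above the highest PaS library by more than the spread within any group (log2 difference 1.44, SE 0.07, adjusted p = 1.1e-10 in wt cells). The CAR genotypes overlapped and the PaS genotypes did not, but neither difference was called (0.16 in CAR and 0.17 in PaS cells, on the log2 scale).

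Cdh2, the N-cadherin of neural and mesenchymal cells, followed the same order. It had 84.9, 86.7 and 80.4 FPKM in CAR ko libraries, against 69.9, 76.0 and 72.4 FPKM in CAR wt libraries. On the PaS side, it had 18.6, 16.5 and 14.6 FPKM in PaS ko libraries, against 16.6, 15.2 and 15.9 FPKM in PaS wt libraries. CAR wt libraries were higher than PaS wt libraries (log2 difference 2.13, SE 0.08, adjusted p = 9.4e-12), and CAR ko libraries higher than PaS ko libraries (log2 difference 2.28, SE 0.08, adjusted p = 5.1e-12). In CAR cells the ko libraries also lay above the wt libraries, but the difference was not called (log2 difference 0.21, SE 0.08, adjusted p = 0.14).

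Cdh15, the M-cadherin first described in muscle, was the cadherin that rose in ko libraries of both cell types. It had 28.4, 30.6 and 34.2 FPKM in CAR ko libraries, against 18.6, 19.0 and 16.1 FPKM in CAR wt libraries. Among PaS libraries, Cdh15 had 3.03, 3.31 and 3.57 FPKM in PaS ko libraries, against 2.60, 0.926 and 1.89 FPKM in PaS wt libraries. Ko libraries were above wt libraries without overlap in CAR (log2 difference 0.76, SE 0.18, adjusted p = 0.010) and in PaS cells (log2 difference 0.66, SE 0.18, adjusted p = 0.033). The CAR call ended without CAR ko replicate 3, at adjusted p = 0.051, and with a pseudocount of 0.1, at adjusted p = 0.054. In PaS cells it ended when any library other than wt replicate 1 was left out, at adjusted p = 0.054 to 0.11, with a pseudocount of 5 (adjusted p = 0.091), without a filter (adjusted p = 0.095) and with the PaS groups alone (adjusted p = 0.14). CAR cells stood far above PaS cells in wt (log2 difference 2.80, SE 0.18, adjusted p = 3.0e-09) and in ko libraries (log2 difference 2.89, SE 0.18, adjusted p = 2.3e-09).

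The summed markers of skeletal muscle were lower than Cdh15 in CAR libraries and higher than Cdh15 in PaS libraries. The summed level of 10 such markers was 8.95 to 10.9 FPKM in CAR ko and 7.68 to 8.78 FPKM in CAR wt libraries, and 9.90 to 10.2 FPKM in PaS ko and 7.76 to 12.4 FPKM in PaS wt libraries, of which Des, desmin, gave 3.80 to 6.90 FPKM. Myod1, a defining factor of myoblasts, was at 0 in all 12 libraries, and Pax7 and Myf5 stayed at or under 0.0179 and 0.325 FPKM. The part of muscle cells in the values of Cdh15 was not tested.

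Cdh13, the T-cadherin that is held in the membrane by a lipid anchor and binds adiponectin, was lower in CAR than in PaS cells. It had 13.5, 15.0 and 15.3 FPKM in CAR ko libraries, against 11.6, 11.4 and 6.70 FPKM in CAR wt libraries. PaS cells had 157, 158 and 168 FPKM in PaS ko libraries, against 155, 167 and 174 FPKM in PaS wt libraries. It made up 52.8% ± 1.49 of cadherin FPKM in PaS ko and 56.2% ± 2.17 in PaS wt libraries (SD, n = 3 each). CAR libraries lay far below PaS libraries in wt (log2 difference -3.97, SE 0.14, adjusted p = 2.1e-12) and in ko cells (log2 difference -3.38, SE 0.14, adjusted p = 1.9e-11). Within CAR cells Cdh13 rose in ko libraries (log2 difference 0.55, SE 0.14, adjusted p = 0.016), without overlap. That call ended without CAR ko replicate 2 or 3 (adjusted p = 0.055 and 0.058), without a filter (adjusted p = 0.069) and with the CAR groups alone (adjusted p = 0.10). In PaS cells the genotypes overlapped (log2 difference -0.03, SE 0.14, adjusted p = 0.93).

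Cdh5, the VE-cadherin of endothelium, and Cdh19, a cadherin of Schwann cells, were near 1 FPKM in PaS cells and lower in CAR cells. Cdh5 ran from 0.162 to 0.565 FPKM in CAR and 1.06 to 1.82 FPKM in PaS libraries (CAR wt minus PaS wt log2 difference -1.04, SE 0.17, adjusted p = 1.2e-04), and since it passed the minimum in its 6 PaS libraries alone, this difference follows in part from the minimum. The call in ko cells (log2 difference -0.61, SE 0.17, adjusted p = 0.0095) ended without CAR ko replicate 3, at adjusted p = 0.055. All 12 tested endothelial markers were called lower in CAR wt than in PaS wt libraries, against 22.7% of all genes, with the smallest p for Ly6c1, Ramp2, Tek and Plvap. Summed levels over 14 markers were 64.5 to 75.0 FPKM in CAR ko and 57.6 to 66.2 FPKM in CAR wt libraries, and 1137 to 1346 FPKM in PaS ko and 1439.9 to 1623 FPKM in PaS wt libraries. The share of each marker in these sums was not counted. Under 1 FPKM in all libraries of the group were 5 of the 14 markers in CAR ko, 6 in CAR wt, 2 in PaS ko and 2 in PaS wt. None was at 0 in all libraries of a group, and their part in the Cdh5 difference was not tested.

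Cdh19 ran from 0.351 to 0.793 FPKM in CAR and 0.994 to 2.13 FPKM in PaS libraries (log2 difference -0.97, SE 0.19, adjusted p = 7.0e-04 in ko cells), and it too passed the minimum in PaS libraries alone, 5 in all. In wt cells it was also called (log2 difference -0.57, SE 0.19, adjusted p = 0.025), a call that ended without CAR wt replicate 1 or 3 (adjusted p = 0.069 and 0.081) or PaS wt replicate 3 (adjusted p = 0.14) and with the wt groups alone (adjusted p = 0.061). Of 8 Schwann cell markers 2 were tested, S100b and Mbp, and 1 was called in CAR wt minus PaS wt, S100b, which was higher, as were 20.5% of all genes. Sox10, a defining factor of Schwann cells, stayed at or under 0.165 FPKM. The list, mostly S100b, summed to 52.5 to 63.0 FPKM in CAR ko and 65.6 to 67.0 FPKM in CAR wt libraries, and 33.7 to 35.9 FPKM in PaS ko and 28.5 to 32.6 FPKM in PaS wt libraries. Sox10 and 2 other markers, Foxd3 and Gfra3, were at 0 in all CAR wt and PaS ko libraries, and the part of these cells in the Cdh19 difference was not tested.

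Among protocadherins, Pcdh7 changed in opposite directions with genotype in CAR and PaS cells, and Pcdh18 rose in CAR ko libraries. Pcdh18, the most abundant protocadherin, made up 65.9% ± 1.78 of protocadherin FPKM in CAR ko, 60.9% ± 2.55 in CAR wt, 55.2% ± 3.34 in PaS ko and 58.1% ± 1.33 in PaS wt libraries (SD, n = 3 each). Its level was 32.3, 22.9 and 28.2 FPKM in CAR ko libraries, against 20.2, 17.9 and 16.2 FPKM in CAR wt libraries. For PaS cells, the values of Pcdh18 were 15.7, 17.9 and 19.1 FPKM in PaS ko libraries, against 22.4, 25.7 and 21.4 FPKM in PaS wt libraries. CAR ko libraries stood above CAR wt libraries (log2 difference 0.58, SE 0.13, adjusted p = 0.0057), and PaS ko libraries below PaS wt libraries, where the difference was not called (log2 difference -0.38, SE 0.13, adjusted p = 0.087). The genotype effect was higher in CAR than in PaS cells (log2 difference 0.96, SE 0.18, adjusted p = 0.0035).

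Pcdh7, a protocadherin known in mice for a part in osteoclast fusion, was called in each of these contrasts. It had 6.38, 6.20 and 6.67 FPKM in CAR ko libraries, against 4.25, 3.43 and 2.86 FPKM in CAR wt libraries. Its PaS values were 4.43, 3.95 and 4.91 FPKM in PaS ko libraries, against 6.86, 7.66 and 6.55 FPKM in PaS wt libraries. No genotype pair overlapped: Pcdh7 rose in CAR ko libraries (log2 difference 0.73, SE 0.14, adjusted p = 0.0027) and fell in PaS ko libraries (log2 difference -0.56, SE 0.14, adjusted p = 0.020), so that the effects differed (log2 difference 1.29, SE 0.20, adjusted p = 8.9e-04). The PaS call ended without PaS wt replicate 1 or 2 (adjusted p = 0.053 and 0.082) or PaS ko replicate 1 or 2 (adjusted p = 0.055 and 0.080). An uncharacterised gene, 4932441J04Rik, overlaps Pcdh7 and reached 1 FPKM in a library, so its reads could be counted with those of Pcdh7.

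Between cell types, Pcdh7 and Pcdh18 changed sides with genotype. CAR wt minus PaS wt gave -0.84 for Pcdh7 (adjusted p = 1.5e-04) and -0.34 for Pcdh18 (adjusted p = 0.039), while CAR ko minus PaS ko gave 0.45 (adjusted p = 0.018) and 0.63 (adjusted p = 8.5e-04). The Pcdh7 call in ko cells ended without CAR ko replicate 3, at adjusted p = 0.061, or PaS ko replicate 2, at adjusted p = 0.071. The Pcdh18 call in wt cells ended without CAR wt replicate 2 or 3 (adjusted p = 0.081 and 0.15), without PaS wt replicate 1 or 2 (adjusted p = 0.063 and 0.14), without a filter (adjusted p = 0.081) and with the replicate block (adjusted p = 0.053).

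The other 4 tested protocadherins were low and were not called between genotypes. Pcdh9 and Pcdh19 ran from 1.17 to 4.20 and 2.58 to 4.06 FPKM over the 12 libraries, Pcdh1 from 0.572 to 1.83 FPKM and Pcdh20 from 0.0743 to 1.13 FPKM. Pcdh1 was higher in CAR ko than in PaS ko libraries (log2 difference 0.68, SE 0.17, adjusted p = 0.0050), and Pcdh20 lower (log2 difference -0.82, SE 0.18, adjusted p = 0.0015). Pcdh20 was also lower in CAR wt than in PaS wt libraries (log2 difference -0.56, SE 0.18, adjusted p = 0.017), a call that ended without CAR wt replicate 3, at adjusted p = 0.073, or PaS wt replicate 2, at adjusted p = 0.064. Since Pcdh20 passed the minimum through PaS libraries alone, both of its differences follow in part from the minimum. The Pcdh9 call in ko cells (log2 difference -0.59, SE 0.22, adjusted p = 0.045) had overlapping libraries, and it ended without CAR ko replicate 2, at adjusted p = 0.24, CAR ko replicate 3, at adjusted p = 0.082, PaS ko replicate 1, at adjusted p = 0.11, or PaS ko replicate 3, at adjusted p = 0.13, without a filter, at adjusted p = 0.10, and with the ko groups alone, at adjusted p = 0.078.

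**Figure D3:**
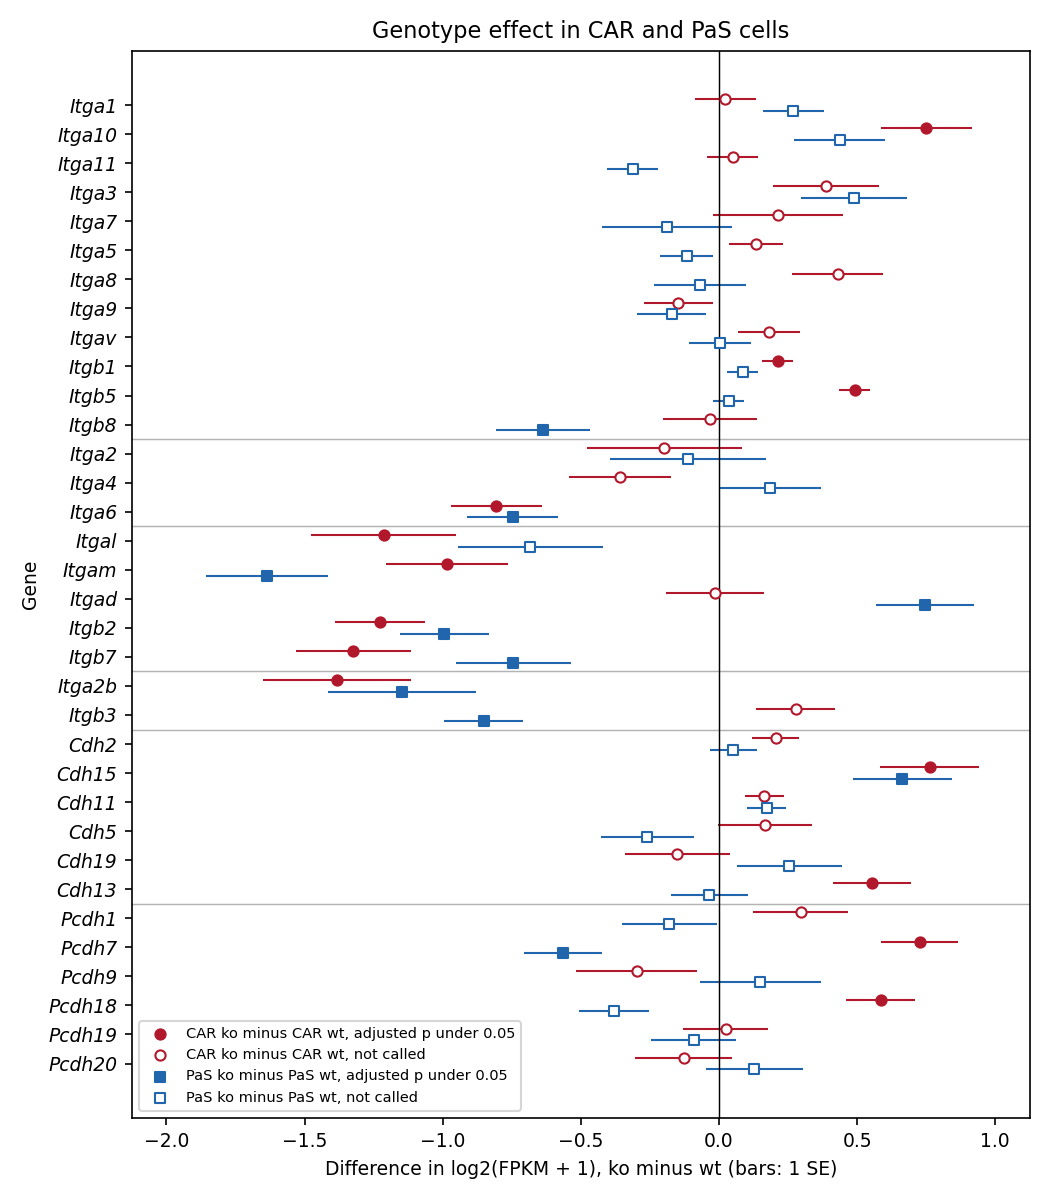
Difference in log2(FPKM + 1) of ko minus wt libraries for the 34 tested members, with circles for CAR and squares for PaS cells, filled where called, and bars of 1 SE. Leukocyte and platelet integrins lie left of 0 in both cell types except Itgad in PaS cells and Itgb3 in CAR cells, and Pcdh7 lies right of 0 in CAR cells and left of it in PaS cells.

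Of 5 tested integrin chains of leukocytes, 4 fell in CAR ko libraries, Itgal, Itgam, Itgb2 and Itgb7, and none rose, where 5.74% of all genes were lower and 6.51% higher. In PaS ko libraries 3 fell, Itgam, Itgb2 and Itgb7, 1 rose, Itgad, and Itgal was not called, where 4.03% of all genes were lower and 3.41% higher. Itgax, an alpha chain of dendritic cells that stayed below the minimum and was not tested, had 0.631, 0.363 and 0.471 FPKM in PaS ko libraries, against 0.145, 0.183 and 0.259 FPKM in PaS wt libraries, higher in ko libraries without overlap. In CAR cells Itgax went the other way, with 0.0326, 0 and 0 FPKM in CAR ko libraries, against 0.326, 0.923 and 0.110 FPKM in CAR wt libraries. The summed level of all 7 matched leukocyte chains was 8.43 to 12.6 FPKM in CAR ko and 26.4 to 30.0 FPKM in CAR wt libraries, and 25.8 to 32.5 FPKM in PaS ko and 50.4 to 63.3 FPKM in PaS wt libraries.

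Itgb2, the beta chain shared by the leukocyte integrins, was the most abundant of them. It had 7.39, 5.62 and 3.70 FPKM in CAR ko libraries, against 14.2, 12.9 and 14.8 FPKM in CAR wt libraries (log2 difference -1.23, SE 0.16, adjusted p = 1.2e-04). In PaS cells the gene had 15.3, 14.9 and 13.3 FPKM in PaS ko libraries, against 27.6, 33.8 and 28.4 FPKM in PaS wt libraries (log2 difference -0.99, SE 0.16, adjusted p = 9.0e-04). Both ko groups lay below their wt groups without overlap, and PaS ko libraries overlapped CAR wt libraries.

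Itgam, the alpha chain of granulocytes and macrophages known as CD11b, had 2.44, 1.36 and 2.80 FPKM in CAR ko libraries, against 5.85, 6.18 and 3.85 FPKM in CAR wt libraries (log2 difference -0.98, SE 0.22, adjusted p = 0.0077). On the PaS side, it had 2.51, 4.57 and 3.37 FPKM in PaS ko libraries, against 10.7, 15.4 and 12.4 FPKM in PaS wt libraries (log2 difference -1.64, SE 0.22, adjusted p = 1.6e-04), the largest fall of a member in that contrast. No genotype pair overlapped. Itgal, the alpha chain of lymphocyte function antigen, had 0.629, 0.247 and 0.776 FPKM in CAR ko libraries, against 2.28, 2.44 and 2.99 FPKM in CAR wt libraries (log2 difference -1.21, SE 0.26, adjusted p = 0.0063). Among PaS libraries, Itgal had 0.560, 2.71 and 0.952 FPKM in PaS ko libraries, against 3.26, 2.48 and 2.15 FPKM in PaS wt libraries, and PaS ko replicate 2 lay among the wt libraries (log2 difference -0.68, SE 0.26, adjusted p = 0.15). Without that library the PaS difference of Itgal was called, at adjusted p = 0.0077.

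Itgb7, the beta chain that guides lymphocytes to the gut, had 2.04, 2.13 and 1.10 FPKM in CAR ko libraries, against 7.19, 5.81 and 4.62 FPKM in CAR wt libraries (log2 difference -1.32, SE 0.21, adjusted p = 5.2e-04). PaS cells had 3.45, 3.91 and 2.52 FPKM in PaS ko libraries, against 5.51, 7.96 and 5.20 FPKM in PaS wt libraries (log2 difference -0.74, SE 0.21, adjusted p = 0.039). Ko libraries were lower in both cell types without overlap. The PaS call of Itgb7 ended without PaS wt replicate 1 or 2 (adjusted p = 0.066 and 0.18), without PaS ko replicate 1 or 3 (adjusted p = 0.080 and 0.16), with a pseudocount of 0.1 (adjusted p = 0.067) and without a filter (adjusted p = 0.11).

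Itgad, an alpha chain of splenic and other tissue macrophages, was at or near 0 in CAR and above 1 FPKM in PaS libraries, so that it passed the minimum through PaS libraries alone. It was listed at 0 in all CAR ko libraries and in 2 of 3 CAR wt libraries, with 0.0331 FPKM in CAR wt replicate 1. For PaS cells, the values of Itgad were 5.13, 6.00 and 5.22 FPKM in PaS ko libraries, against 3.27, 3.50 and 1.94 FPKM in PaS wt libraries, so that it rose in ko libraries without overlap (log2 difference 0.75, SE 0.18, adjusted p = 0.015). The call ended without PaS wt replicate 3, at adjusted p = 0.076, without PaS ko replicate 2, at adjusted p = 0.062, with a pseudocount of 0.1, at adjusted p = 0.23, and with a filter of 5 FPKM, at adjusted p = 0.050. The difference of the effects was not called (0.090), except with a pseudocount of 5, at adjusted p = 0.027. Cox6a2 overlaps Itgad and reached 1 FPKM in a library.

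Blood cell markers were lower in CAR ko libraries and mixed in PaS ko libraries. Of all genes, 5.74% were called lower and 6.51% higher in CAR ko, and 4.03% lower and 3.41% higher in PaS ko libraries. In CAR ko minus CAR wt, 12 of 13 tested pan-leukocyte and lymphoid markers, 16 of 17 neutrophil markers and 9 of 15 monocyte and macrophage markers were called lower and none was called higher. In PaS ko minus PaS wt, 3 of 13 pan-leukocyte markers were lower and 1 higher, 16 of 17 neutrophil markers were lower, and of 15 macrophage markers 4 were lower and 7 higher. Of 12 erythroid markers, 8 were lower and none higher in CAR ko, and 6 higher and none lower in PaS ko libraries, with sums of 2413 to 2726 FPKM in CAR ko and 4135 to 4743 FPKM in CAR wt libraries, and 4319 to 4637 FPKM in PaS ko and 3557 to 4441 FPKM in PaS wt libraries. The 17 neutrophil markers summed to 4777 to 5402 FPKM in CAR ko and 10575 to 12162 FPKM in CAR wt libraries, and 7105 to 7277 FPKM in PaS ko and 22869 to 25604 FPKM in PaS wt libraries. The 15 pan-leukocyte markers summed to 122 to 131 FPKM in CAR ko and 340.1 to 353 FPKM in CAR wt libraries, and 292 to 317 FPKM in PaS ko and 423 to 488 FPKM in PaS wt libraries. Ptprc, which encodes the CD45 that the sort selected against, averaged 2.50 ± 0.600 FPKM in CAR ko and 6.46 ± 1.36 FPKM in CAR wt libraries (SD, n = 3 each, log2 difference -1.09, SE 0.17, adjusted p = 5.6e-04). In PaS cells Ptprc averaged 8.54 ± 0.199 FPKM in ko and 11.8 ± 2.66 FPKM in wt libraries (SD, n = 3 each), without overlap but not called (log2 difference -0.41, SE 0.17, adjusted p = 0.20). No marker of these lists was at 0 in all libraries of a group. The part of blood cells in the differences of the leukocyte chains was not tested.

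Beside the rise of Itgad in PaS ko libraries, macrophage markers went both ways. Of 15 tested, 7 were called higher and 4 lower, against 3.41% and 4.03% of all genes. The smallest p were those of Lyz2 and Cd14, both lower, followed by C1qa and C1qc, complement genes of tissue macrophages, both higher. C1qa had 101, 77.9 and 84.8 FPKM in PaS ko libraries, against 39.4, 32.6 and 36.8 FPKM in PaS wt libraries (log2 difference 1.25, SE 0.17, adjusted p = 1.5e-04), and C1qc had 155, 117 and 139.8 FPKM in PaS ko libraries, against 50.5, 38.4 and 61.6 FPKM in PaS wt libraries (log2 difference 1.45, SE 0.21, adjusted p = 3.9e-04). The 15 macrophage markers together had lower sums in PaS ko libraries, 932 to 1040.5 FPKM against 1282 to 1372 FPKM in PaS wt libraries, and 231 to 249 FPKM in CAR ko against 483 to 594 FPKM in CAR wt libraries. Their part in the Itgad difference was not tested.

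Of the platelet integrin pair, Itga2b fell in ko libraries of both cell types and Itgb3 in those of PaS cells. Itga2b, the alpha chain of the platelet fibrinogen receptor, had 1.35, 3.66 and 0.706 FPKM in CAR ko libraries, against 4.68, 5.80 and 7.55 FPKM in CAR wt libraries (log2 difference -1.38, SE 0.27, adjusted p = 0.0030). Its PaS values were 4.67, 4.66 and 4.48 FPKM in PaS ko libraries, against 10.5, 13.1 and 10.8 FPKM in PaS wt libraries (log2 difference -1.15, SE 0.27, adjusted p = 0.014). Ko libraries were lower without overlap in both. The PaS call ended without PaS wt replicate 2, at adjusted p = 0.059, with a pseudocount of 0.1, at adjusted p = 0.063, and without a filter, at adjusted p = 0.072. Itgb3, its beta partner, which also pairs with the chain of Itgav in stroma and osteoclasts, had 8.78, 10.1 and 7.32 FPKM in CAR ko libraries, against 7.05, 5.58 and 8.54 FPKM in CAR wt libraries. These CAR libraries overlapped (log2 difference 0.28, SE 0.14, adjusted p = 0.25).

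In PaS cells Itgb3 had 7.98, 8.48 and 8.04 FPKM in PaS ko libraries, against 14.6, 17.1 and 15.0 FPKM in PaS wt libraries, and fell in ko libraries without overlap (log2 difference -0.85, SE 0.14, adjusted p = 0.0011). The genotype effect on Itgb3 was higher in CAR than in PaS cells (log2 difference 1.13, SE 0.20, adjusted p = 0.0029). PaS wt libraries stood above all other groups: CAR wt minus PaS wt was -1.06 (adjusted p = 1.9e-05) and CAR ko minus PaS ko 0.07 (adjusted p = 0.73).

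Of 14 megakaryocyte and platelet markers, 4 were lower in CAR ko than in CAR wt libraries and 7 in PaS ko than in PaS wt libraries, and none was higher. Of all genes, 5.74% were lower and 6.51% higher in CAR ko, and 4.03% lower and 3.41% higher in PaS ko libraries. Sums of the 14 markers were 21.8 to 295 FPKM in CAR ko and 199 to 511 FPKM in CAR wt libraries, and 44.4 to 55.3 FPKM in PaS ko and 372 to 444 FPKM in PaS wt libraries. CAR ko replicate 2, the library with the highest Itga2b of its group, also had the highest Pf4, a platelet chemokine, at 145 FPKM against 12.5 and 16.2 FPKM in the other CAR ko libraries. Itgb3 is also known from osteoclasts, and of 3 tested osteoclast markers 1 was higher and 1 lower in CAR ko libraries and 2 were higher in PaS ko libraries, with sums over 8 markers of 217 to 221 FPKM in CAR ko and 192 to 212 FPKM in CAR wt libraries, and 511 to 541 FPKM in PaS ko and 355 to 396 FPKM in PaS wt libraries. The 2 higher in PaS ko libraries were Ctsk and Acp5. Calcr, the calcitonin receptor of osteoclasts, was at 0 in all CAR wt and PaS ko libraries, and Dcstamp, a fusion receptor, in all PaS ko and PaS wt libraries. No megakaryocyte marker was at 0 in all libraries of a group. In all PaS ko libraries 7 of 14 megakaryocyte and 4 of 8 osteoclast markers were under 1 FPKM. Their part in the values of Itga2b and Itgb3 was not tested.

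**Figure D4:**
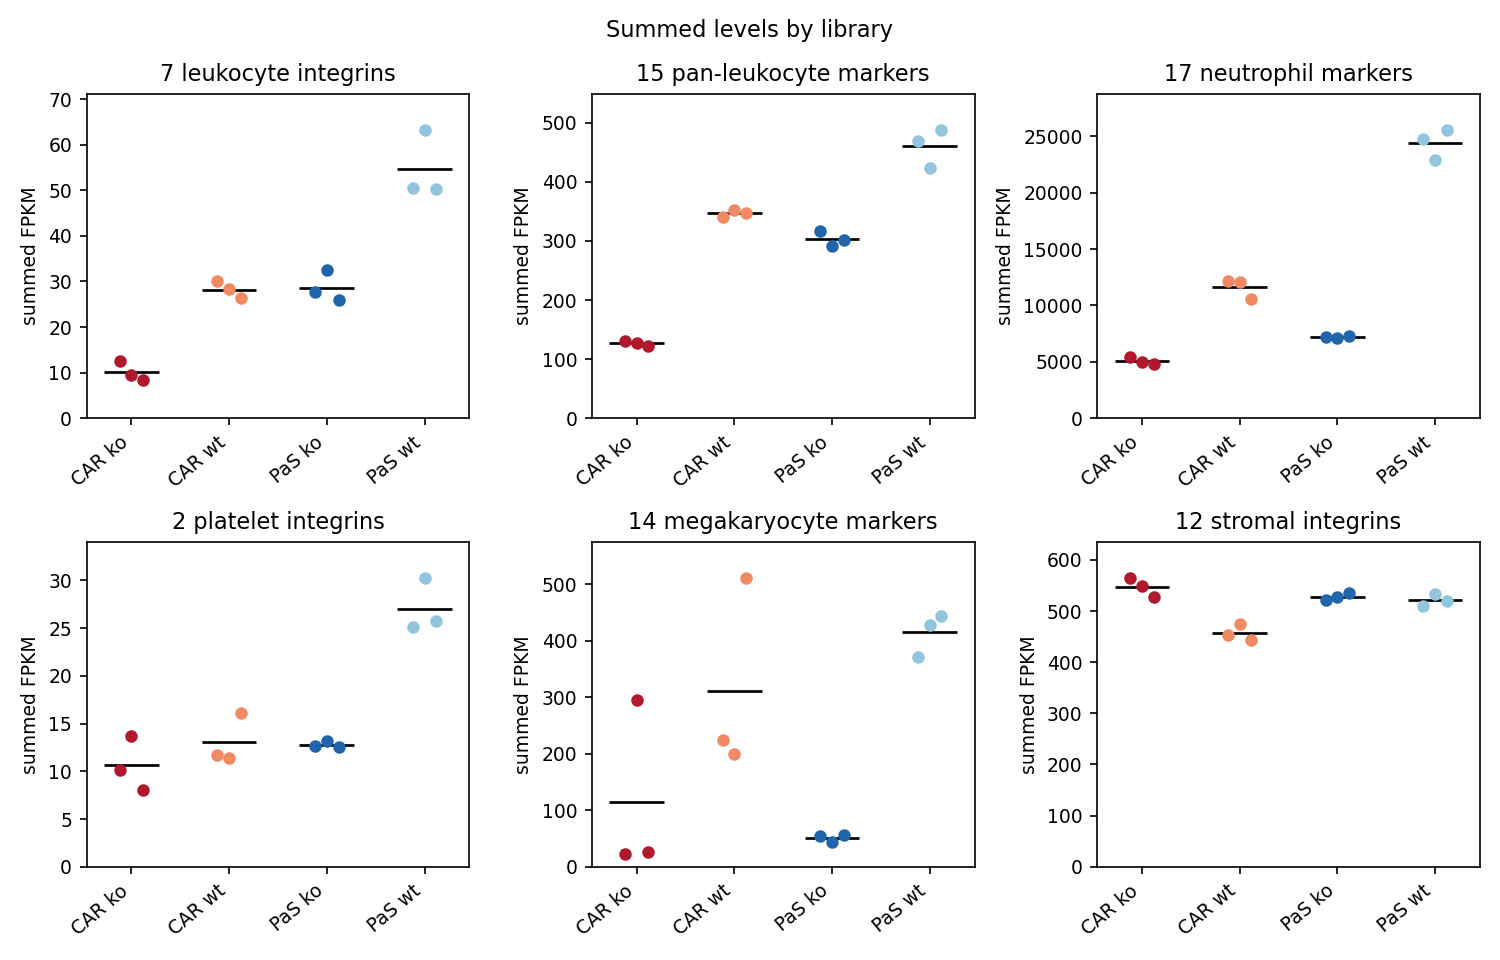
Summed FPKM in each library of leukocyte integrins, pan-leukocyte markers, neutrophil markers, platelet integrins, megakaryocyte markers and stromal integrins, with points for the 3 libraries of each group and lines at their means. Sums of leukocyte integrins and of neutrophil markers are lower in ko than in wt libraries of both cell types. The 12 stromal integrins sum to 527 to 564 FPKM in CAR ko and 444 to 475 FPKM in CAR wt libraries. Of these 12, 3 were called higher in CAR ko, Itga10, Itgb1 and Itgb5, against 6.51% of all genes, and none lower.

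Alpha chains shared by blood and stroma, 3 in all, formed a class of their own. Itga6, a laminin receptor of stem cells, platelets and endothelium, fell in ko libraries of both cell types. It had 0.753, 0.965 and 0.905 FPKM in CAR ko libraries, against 2.19, 1.82 and 2.89 FPKM in CAR wt libraries (log2 difference -0.81, SE 0.16, adjusted p = 0.0042). In PaS cells the gene had 3.84, 5.93 and 4.86 FPKM in PaS ko libraries, against 8.63, 9.10 and 8.53 FPKM in PaS wt libraries (log2 difference -0.75, SE 0.16, adjusted p = 0.0093). No genotype pair overlapped. The PaS call ended without PaS ko replicate 1, at adjusted p = 0.052. CAR libraries were below PaS libraries in wt (log2 difference -1.58, SE 0.16, adjusted p = 1.1e-06) and in ko cells (log2 difference -1.64, SE 0.16, adjusted p = 7.9e-07). The neutrophil sums given above were lower in ko libraries of both cell types, and the megakaryocyte sums lower in PaS ko libraries and overlapping in CAR cells. The endothelial sums given beside Cdh5 were lower in CAR than in PaS libraries of both genotypes. All 12 tested markers were called lower in each, against 22.7% of all genes in wt and 19.8% in ko cells. In PaS ko the sums were also lower than in PaS wt libraries, with 2 of 12 markers called lower and none higher, against 4.03% and 3.41% of all genes. In CAR ko libraries 3 were called higher and none lower, against 6.51% and 5.74%. Their part in the Itga6 difference was not tested.

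Itga4, the alpha chain of the VCAM1 receptor of leukocytes, ran from 0.476 to 0.758 FPKM in CAR ko and 0.920 to 1.37 FPKM in CAR wt libraries, which was not called (log2 difference -0.36, SE 0.19, adjusted p = 0.25), and from 0.925 to 1.66 FPKM in PaS ko and 0.644 to 1.20 FPKM in PaS wt libraries. Itga2, a collagen receptor of platelets, stayed at or under 0.822 FPKM in CAR and ran from 0.706 to 2.28 FPKM in PaS libraries, and was called in CAR ko minus PaS ko (log2 difference -0.85, SE 0.28, adjusted p = 0.026) and CAR wt minus PaS wt (log2 difference -0.77, SE 0.28, adjusted p = 0.038). The ko call ended without CAR ko replicate 1 or 2 (adjusted p = 0.077 and 0.058) or PaS ko replicate 3 (adjusted p = 0.14) or a filter (adjusted p = 0.063). The wt call ended without CAR wt replicate 1 or 3 (adjusted p = 0.086 and 0.15) or PaS wt replicate 1 or 2 (adjusted p = 0.074 and 0.17), without a filter (adjusted p = 0.084) and with a pseudocount of 5 (adjusted p = 0.052). Itga2 passed the minimum in 3 PaS libraries alone, so both differences follow in part from it.

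**Figure D5:**
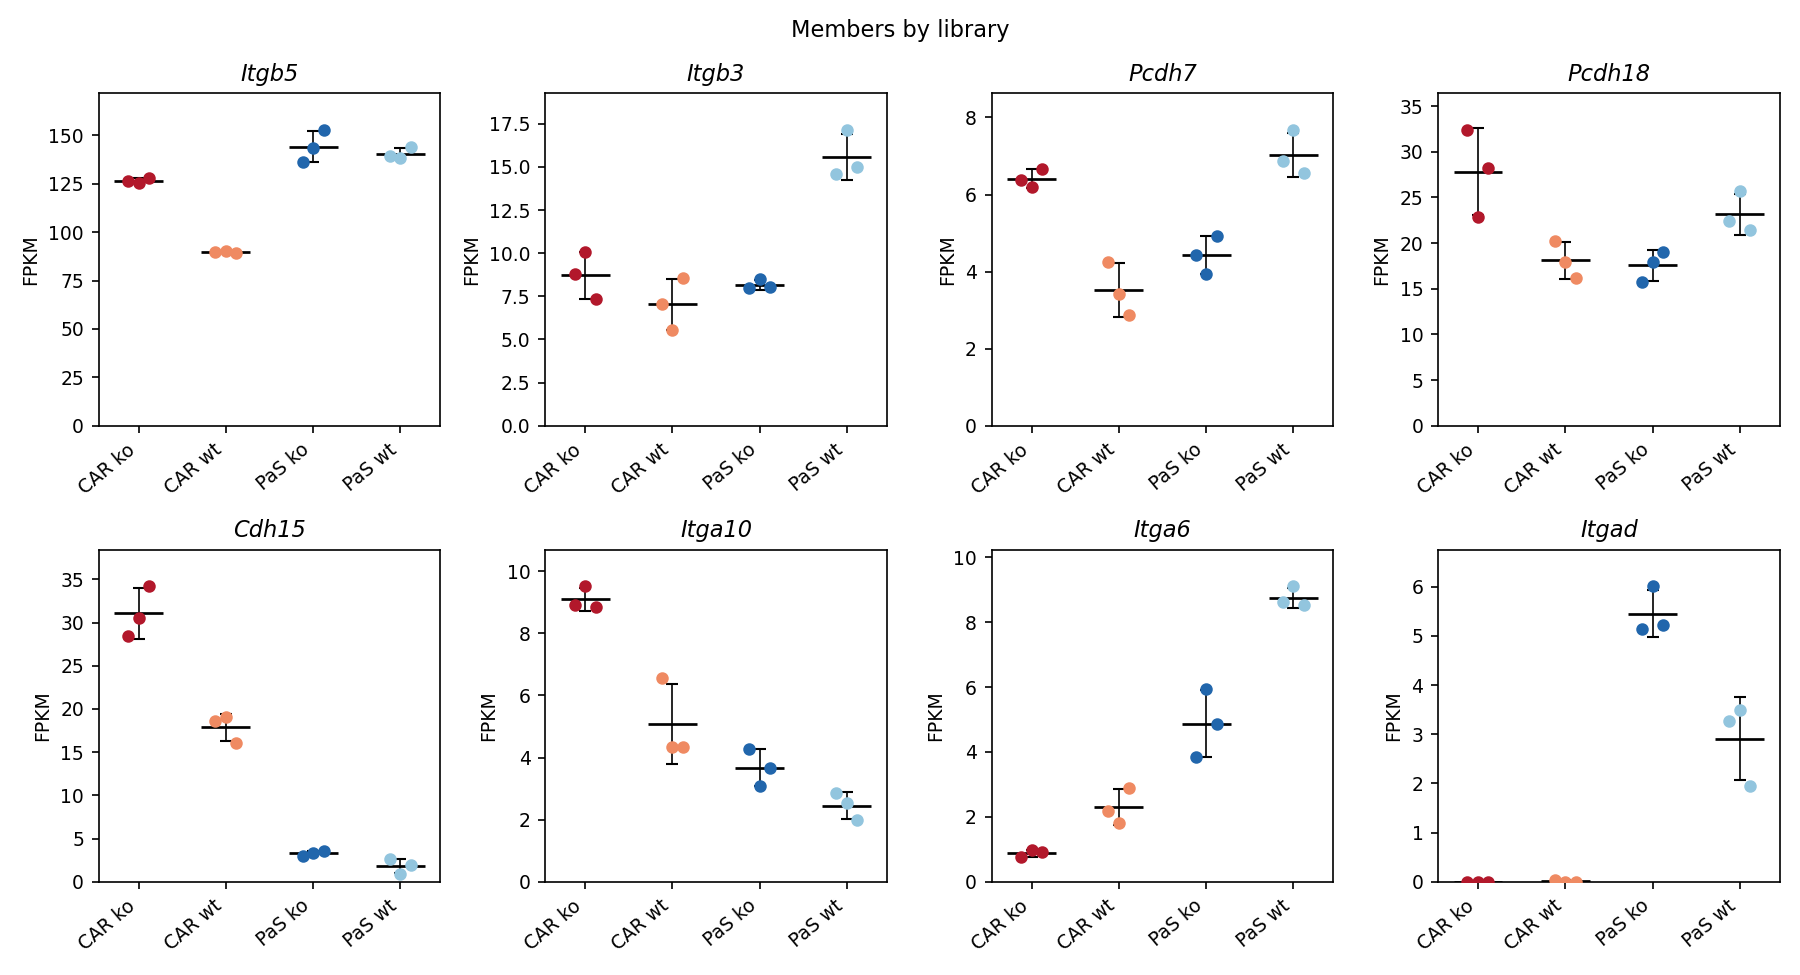
FPKM of 8 members in each library, with points for the 3 libraries of each group, lines at the mean and bars of 1 SD. Itgb5 is higher in CAR ko than in CAR wt libraries with little spread, Pcdh7 is higher in CAR ko and lower in PaS ko than in the matching wt libraries, and Itgb3 is highest in PaS wt libraries.

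Ligands of the integrins were measured in the same cells. Of 29 tested ligand genes, 9 were called higher and 4 lower in CAR ko than in CAR wt libraries, against 6.51% and 5.74% of all genes, and 1 of the 4 was Col1a1, whose listed zeros are described with Spp1. In PaS ko libraries 5 were higher and 9 lower than in PaS wt libraries, against 3.41% and 4.03% of all genes, with median log2 differences of -0.01 in CAR and -0.10 in PaS cells. The genotype effect was higher in CAR than in PaS cells for 6 and lower for none, against 3.32% and 3.26% of all genes. Fn1, fibronectin, the ligand of the Itga5 chain, had 83.3, 118 and 107 FPKM in CAR ko libraries, against 58.2, 66.1 and 46.3 FPKM in CAR wt libraries (log2 difference 0.84, SE 0.12, adjusted p = 2.1e-04). On the PaS side, it had 825, 833 and 810.3 FPKM in PaS ko libraries, against 1246, 1197 and 1134 FPKM in PaS wt libraries (log2 difference -0.53, SE 0.12, adjusted p = 0.0098). Both Fn1 and Itga5 thus stood higher in PaS than in CAR libraries, and Itga5 was called between genotypes in neither cell type.

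Spp1, osteopontin, a ligand of receptors with the Itgav chain, averaged 18038 ± 599.9 FPKM in CAR ko and 11075 ± 580.1 FPKM in CAR wt libraries, and 2704 ± 159.6 FPKM in PaS ko and 1458 ± 102 FPKM in PaS wt libraries (SD, n = 3 each). It rose in ko libraries of CAR (log2 difference 0.70, SE 0.06, adjusted p = 3.0e-06) and of PaS cells (log2 difference 0.89, SE 0.06, adjusted p = 2.7e-07). Of 10 osteoblast markers, Spp1 among them, 8 were higher and 1, Col1a1, lower in CAR ko, against 6.51% and 5.74% of all genes. In PaS ko libraries 7 of the 10 were higher and none lower, against 3.41% and 4.03%. The 10 markers summed to 40888 to 44398 FPKM in CAR ko and 27994 to 29822 FPKM in CAR wt libraries, and 5868 to 6359 FPKM in PaS ko and 4098 to 4409 FPKM in PaS wt libraries. Spp1 is itself a large part of these sums, so they do not measure osteoblasts apart from it. Col1a1 is in them too, and its listed zeros, given below, enter the sums of CAR ko. None of the 10 markers was at 0 in all libraries of a group, and the part of osteoblasts in the values of Spp1 and of the bone-linked members Cdh11 and Itgb3 was not tested. Postn, periostin, a bone matrix ligand, rose in CAR ko libraries (log2 difference 1.36, SE 0.05, adjusted p = 4.9e-10) and was not called in PaS cells (log2 difference -0.07, SE 0.05, adjusted p = 0.54), and Thbs1, thrombospondin, likewise had 0.91 in CAR (adjusted p = 9.8e-07) and -0.05 in PaS cells (adjusted p = 0.79). The 9 ligands that fell in PaS ko libraries included the basement membrane genes Nid1, nidogen (log2 difference -0.76, SE 0.06, adjusted p = 1.4e-06), and Lamc1, a laminin chain (log2 difference -0.55, SE 0.08, adjusted p = 1.8e-04). Col1a1, a chain of type I collagen, had a listed value of 0 for CAR ko replicates 2 and 3 but 4677 FPKM for replicate 1, so its lower call in CAR cells is left aside.

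Cytoplasmic partners were tested as well. Of 28 tested integrin adaptors, 1 was higher and 4 lower in CAR ko than in CAR wt libraries, where 6.51% of all genes were higher and 5.74% lower. In PaS ko libraries 7 were lower than in PaS wt libraries and none higher, where 4.03% of all genes were lower and 3.41% higher. The CAR decreases were led by Fermt3, the kindlin of blood cells (log2 difference -1.27, SE 0.17, adjusted p = 1.5e-04), Parvg, a parvin of blood cells (log2 difference -1.09, SE 0.15, adjusted p = 1.9e-04), and Ptk2b, a kinase related to focal adhesion kinase (log2 difference -0.88, SE 0.14, adjusted p = 7.8e-04). In PaS ko minus PaS wt none of Fermt3, Parvg and Ptk2b was called. The genotype effect on Parvg was called lower in CAR than in PaS cells. The blood markers given above were lower in CAR ko and mixed in PaS ko libraries, and their part was not tested. Zyx, zyxin of focal adhesions, fell in both CAR (log2 difference -0.58, SE 0.10, adjusted p = 0.0016) and PaS ko libraries (log2 difference -0.62, SE 0.10, adjusted p = 0.0011). Flna, filamin A, and Pxn, paxillin, fell in PaS ko libraries (-0.31 and -0.55, adjusted p = 0.010 and 0.018).

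Among 11 tested catenins and cadherin partners, 5 were higher and 1 lower in CAR ko than in CAR wt libraries, against 6.51% and 5.74% of all genes. In PaS ko libraries 1 of 11 was higher than in PaS wt libraries and none lower, near the 7.44% of all genes called there. Ctnnb1, beta-catenin, which ties classical cadherins to alpha-catenin and also carries Wnt signals, had 250.4, 263 and 243 FPKM in CAR ko libraries, against 187, 169.6 and 164 FPKM in CAR wt libraries (log2 difference 0.54, SE 0.07, adjusted p = 6.1e-05). Among PaS libraries, Ctnnb1 had 125, 138 and 132 FPKM in PaS ko libraries, against 129.7, 122 and 136 FPKM in PaS wt libraries, which overlapped (log2 difference 0.02, SE 0.07, adjusted p = 0.89), and the effects differed (log2 difference 0.52, SE 0.09, adjusted p = 0.0032). Arvcf, a catenin that binds the cadherin tail, rose in both CAR (log2 difference 0.55, SE 0.11, adjusted p = 0.0027) and PaS ko libraries (log2 difference 0.47, SE 0.11, adjusted p = 0.011). Cdon, a surface partner of cadherins, rose in CAR ko libraries (log2 difference 0.70, SE 0.13, adjusted p = 0.0019) and was far lower in CAR than in PaS cells (-2.77 in wt libraries). The only decrease in CAR ko libraries was Jup, plakoglobin (log2 difference -0.45, SE 0.11, adjusted p = 0.013).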

How the data were processed

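RNA of CAR and PaS cells sorted from bone marrow of crushed, collagenase-digested femora and tibiae went into SMART-Seq v4 libraries, as the labels' protocols state. The authors deposited FPKM per gene. TopHat2 2.0.14, Cufflinks 2.2.1, Cuffnorm 2.2.1, Cuffdiff and the build mm10 are named in the submitters' processing notes, without their settings. FPKM hold no counts, so read depth and counting error are unknown. The 8 ATAC samples of the series were not analysed here.

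Values were taken as log2(FPKM + 1). The 12938 of 24347 genes with at least 1 FPKM in at least 3 of 12 libraries were fitted with limma 3.58.1 (R 4.3.3), with 4 group means, an intensity trend, 8 residual and 6.95 prior degrees of freedom and two-sided tests, Benjamini-Hochberg adjusted over all genes tested. The fit was tested on simulated data. Tables were made with Python 3.11.15 and pandas 2.3.3 and figures with matplotlib 3.10.9. No replicates were identical: pairs shared 0.195% to 0.276% of values.

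Members and gene lists were chosen with earlier results of these data known. Values in every library were given for members called between genotypes, with a mean of at least 20 FPKM in a group, or among the 8 with the largest differences between cell types. From other lists, up to 4 genes per contrast were named by smallest p; Itgax, Ptprc, Col1a1, Calcr, Dcstamp and the muscle and Schwann cell genes were named outside that rule, with their values seen. Alternatives were pseudocounts of 0.1 and 5, a minimum of 5 FPKM or none, scaling by median ratios, a replicate block, listed zeros set to missing, fits of the compared groups alone, and leaving out each library. Promoter windows and gene positions came from RefSeq on GRCm38.p6, the patched form of the same build, and genes that overlap a member were listed from its annotation.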

Additional observations from a re-analysis of the deposited data

Results flagged for a closer look

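The genotype effect differed between CAR and PaS cells for 4 members, by the test of the difference of the effects across all genes (limma, Benjamini-Hochberg adjusted). The effect in CAR minus that in PaS cells was 1.29 for Pcdh7, 1.13 for Itgb3, 0.96 for Pcdh18 and 0.46 for Itgb5 on the log2 scale. Pcdh7 was higher in 3 of 3 CAR ko libraries than in every CAR wt library and lower in 3 of 3 PaS ko libraries than in every PaS wt library. Pcdh18 had the same directions without overlap, Itgb3 was without overlap in PaS cells and Itgb5 in CAR cells. These separations come from the libraries that gave the calls and are no added support for them. The adjusted p of the difference over all alternatives ran from 6.7e-04 to 0.0040 for Pcdh7, 0.0015 to 0.013 for Itgb3, 0.0013 to 0.020 for Pcdh18 and 0.0018 to 0.0075 for Itgb5. No explanation of these differences was tested.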

How the results depend on the processing

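The 4 differences of genotype effects were called under every alternative run, as were 10 of 13 calls in CAR ko minus CAR wt, 3 of 10 in PaS ko minus PaS wt (Itgam, Itgb2 and Itgb3), 15 of 25 in CAR ko minus PaS ko and 18 of 24 in CAR wt minus PaS wt. Members called in PaS ko minus PaS wt were 6 with a pseudocount of 0.1 and 5 to 8 when a library was left out, with 5 without PaS wt replicate 2 and without PaS ko replicate 1, against 10. In CAR ko minus PaS ko, 16 of 21 tested members were called with a filter of 5 FPKM, against 25 of 34 with the main filter. Leaving out a library gave 11 to 13 called members in CAR ko minus CAR wt, 19 to 22 in CAR ko minus PaS ko and 19 to 23 in CAR wt minus PaS wt.

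Uncalled differences that changed sign when a library was left out ranged, in CAR ko minus CAR wt, from -0.10 to 0.11 for Itga1, -0.0130 to 0.12 for Itga11 and -0.10 to 0.0534 for Itgb8, and Itgad, at -0.0235 to 0, reached 0 without CAR wt replicate 1 and did not change sign. In PaS ko minus PaS wt they ranged from -0.0797 to 0.00233 for Cdh13, -0.0286 to 0.13 for Cdh2, -0.10 to 0.0748 for Itgav and -0.00623 to 0.0744 for Itgb5. The cause was not tested.

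With the replicate number as a block, 13 members were called in CAR ko minus CAR wt, 11 in PaS ko minus PaS wt, where Itga11 was added, 4 in the difference of effects, 25 in CAR ko minus PaS ko and 23 in CAR wt minus PaS wt, where Pcdh18 was lost. Deviations of same-numbered libraries correlated at -0.0411 to 0.108, so the numbers were not taken as pairs. Read depth is unknown, and members near 1 FPKM are the least certain.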
